A study of Rattus norvegicus with 6 samples.

Results

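The let-7 3p arms are the strands cut from the 3' side of the let-7 hairpins, and their balance with the 5p arms of the same hairpins was examined in small RNA sequencing of the peri-infarct cortex of rats. They were taken as all rows of the deposited count table whose name starts with let-7 and ends with 3p, which gave 11 of 493 mature miRNAs. Of these 11, 10 passed the filter on low counts, beside 452 of all miRNAs, and let-7g-3p did not. The 8 let-7 5p arms of the table served as the reference. Male Sprague-Dawley rats of 250 to 270 g were used, their age not being given, and each group held 3 rats with 1 library for each. In the MCAO group the middle cerebral artery of the right side was closed for 90 min before blood flow was restored, and the cortex was taken on day 7 (counted from surgery in the label of replicate 3 and from reperfusion in the others). Rats of the MCAO-rTMS group had the same occlusion and then 10 Hz rTMS, in which a coil above the head delivers magnetic pulses, for 10 min a day on 7 days in a row, and their labels give no day of tissue collection. Both groups had a stroke, and sham-operated rats were not analysed here, so a value of the MCAO group is not a healthy level. Per the methods, the coil lay over the motor cortex of the injured side and stimulation began the day after reperfusion, and whether tissue was taken on the same day in both groups cannot be told from the labels.

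A let-7 hairpin is cut out of a long primary transcript by Drosha and trimmed by Dicer to a short duplex of both arms. Argonaute keeps a single strand of the duplex as the guide that finds target mRNAs, and the other, the passenger strand, is usually broken down. In let-7 the 5p arm is the usual guide, a repressor of growth and stem cell genes that accumulates as neurons mature. Both arms of a hairpin come from the same transcript, and the ratio of their reads is called the strand balance here. The 5p arms of let-7a, let-7c and let-7f are each made by more than a single hairpin, so for these letters the ratio also moves with transcription of the other copies.

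The mature sequences show which 3p arms can be told apart by their reads. RefSeq (GRCr8) held 10 of the 11 3p arms, and no sequence is shown for let-7c-1-3p. In the lines that follow the seed, bases 2 to 8 from the 5' end and the main part of a miRNA that pairs with targets, is in capitals. The first 4 share a seed and are followed by members whose seeds differ. let-7g-3p, which did not pass the filter, has a sequence that is not printed, and its seed is that of let-7a-2-3p.
let-7a-1-3p: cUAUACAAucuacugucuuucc
let-7c-2-3p: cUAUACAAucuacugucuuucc
let-7b-3p: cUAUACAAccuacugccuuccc
let-7f-1-3p: cUAUACAAucuauugccuucc
let-7f-2-3p: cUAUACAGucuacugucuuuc
let-7d-3p: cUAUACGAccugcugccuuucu
let-7e-3p: cUAUACGGccuccuagcuuucc
let-7a-2-3p: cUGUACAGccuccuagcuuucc
let-7i-3p: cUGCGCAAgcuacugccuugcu

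The sequences of let-7c-2-3p and let-7a-1-3p are identical, and their counts were the same in all 6 libraries. Both rows are therefore taken here to hold the same reads. An even split of the reads between the rows would also give equal counts, and how such reads were counted is not given. Which hairpin a read came from cannot be told from these counts. let-7f-2-3p is next to both sequences with a single difference, A8G. It is counted from the 5' end over 21 bases with the base of let-7a-1-3p first. Over all 45 pairs of 3p arms the median number of differences was 6, with a range from 0 to 11. The 5p arms are more alike, with a median of 3 differences over 28 pairs, and all 8 carry the same seed, whereas the 10 3p arms have 6 seeds. In 4 of the 28 5p pairs, such as let-7a-5p and let-7c-5p, a single base differs. Whether reads were placed in the wrong 5p row, which would alter the ratios below, was not tested. Among the 451 counted miRNAs with a sequence, the seed shared by let-7a-1-3p, let-7b-3p, let-7c-2-3p and let-7f-1-3p was also found in 1 further miRNA, miR-98-3p, itself a let-7 relative.

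The guide arms of let-7a and let-7c are shown beside that of let-7d, because let-7d behaved differently from the rest in the ratios below.
let-7a-5p: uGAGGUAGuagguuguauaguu
let-7c-5p: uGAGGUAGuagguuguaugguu
let-7d-5p: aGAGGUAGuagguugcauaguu
Of the 8 5p arms, 7 begin with U and let-7d-5p begins with A. Against let-7a-5p, the differences of let-7d-5p are U1A and U16C. All 10 3p arms with a sequence begin with C. The hairpins of let-7d and let-7i, with both arms in capitals, show how the strands lie on either side of the loop.
let-7d hairpin: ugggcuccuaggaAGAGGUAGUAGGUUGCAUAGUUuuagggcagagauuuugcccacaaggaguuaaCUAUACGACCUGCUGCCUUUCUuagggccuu
let-7i hairpin: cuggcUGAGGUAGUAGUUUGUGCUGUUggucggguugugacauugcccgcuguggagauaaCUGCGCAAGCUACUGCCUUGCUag

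Total counts lay between 10492610 and 15411620 per library, and no value from 1 to 9 is listed anywhere in the table, so a listed 0 may hide up to 9 reads. Levels are given as CPM, the count in every 1000000 reads of the library total after scaling with edgeR's TMM factors, which ran from 1.16 to 1.39 in the MCAO group and from 0.695 to 0.864 in the MCAO-rTMS group. Ratios of 3p to 5p counts need no scaling, since both counts come from the same library. Over all 452 miRNAs tested, 27.2% rose and 28.1% fell after rTMS (edgeR quasi-likelihood test, adjusted p under 0.05), and the counts of marker miRNAs stand beside these shares. The brain tissue label was checked with 3 neuronal miRNAs, whose summed level was 323003 to 419811 CPM in MCAO rats and 423044 to 610136 CPM in MCAO-rTMS rats, with 1 of 3 higher in the latter and none lower. The rise of that sum rests on the TMM scaling. As a mean percent of raw library totals (MCAO first), miR-128-3p was at 26.2% and 26.9% and miR-9a-5p at 20.8% and 12.1%. The much rarer miR-124-3p was at 0.662% and 0.310%. Of 5 microglial and leukocyte miRNAs, 4 were lower in the MCAO-rTMS group, and the sum of all 5 was 695 to 718 CPM in MCAO and 312 to 549 CPM in MCAO-rTMS libraries. Most of that sum was miR-146a-5p, with means of 618 and 414 CPM, which did not pass (adjusted p = 0.078 in edgeR). The other lists moved less uniformly: 1 of 2 endothelial miRNAs was lower, 1 of 2 oligodendrocyte miRNAs tested was higher, 1 red blood cell miRNA was higher and 1 lower, and 2 muscle miRNAs were higher and 2 lower. These are bulk samples, in which fewer cells of a type and less of a miRNA per cell cannot be told apart, and the part of cell composition in the let-7 results was not tested.

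The 3p arms were rare next to the 5p arms in both groups. As a share of all let-7 counts, with the shared reads of let-7c-2-3p and let-7a-1-3p counted once, the 3p arms held 0.631%, 0.569% and 0.578% in the 3 MCAO libraries. In the MCAO-rTMS libraries the shares were 0.226%, 0.223% and 0.200%, and no library of either group reached the range of the other. The mean went from 0.593% ± 0.0336 to 0.216% ± 0.0144 (SD, n = 3 each), a 2.74-fold lower share after rTMS. As raw reads, the summed 3p count was 9026 ± 1171 in MCAO rats and 9656 ± 1220 in MCAO-rTMS rats, and the summed 5p count was 1511307 ± 135512 and 4441403 ± 290727 (SD, n = 3 each). The raw 3p sums overlapped between the groups and the 5p sums did not. The direction of the scaled 3p sum depended on the scaling. With TMM factors it was 641, 640 and 580 CPM in the MCAO libraries and 808, 833 and 810 CPM in the MCAO-rTMS libraries, which is higher without overlap. With library totals only it was 767, 739 and 808 CPM and then 697, 720 and 564 CPM, which is lower without overlap.

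let-7d-3p made up most of the 3p reads. It gave 54.8%, 62.2% and 65.1% of all let-7 3p reads in the MCAO libraries and 74.8%, 77.8% and 74.3% in the MCAO-rTMS libraries. Without let-7d, the 3p share of let-7 counts was 0.244% ± 0.0459 in the MCAO group and 0.0535% ± 0.00389 in MCAO-rTMS rats (SD, n = 3 each), which is 4.56-fold lower.

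The level of each 3p arm in every library is shown on a log scale in the plot of levels, in order of abundance.

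**Figure D1:**
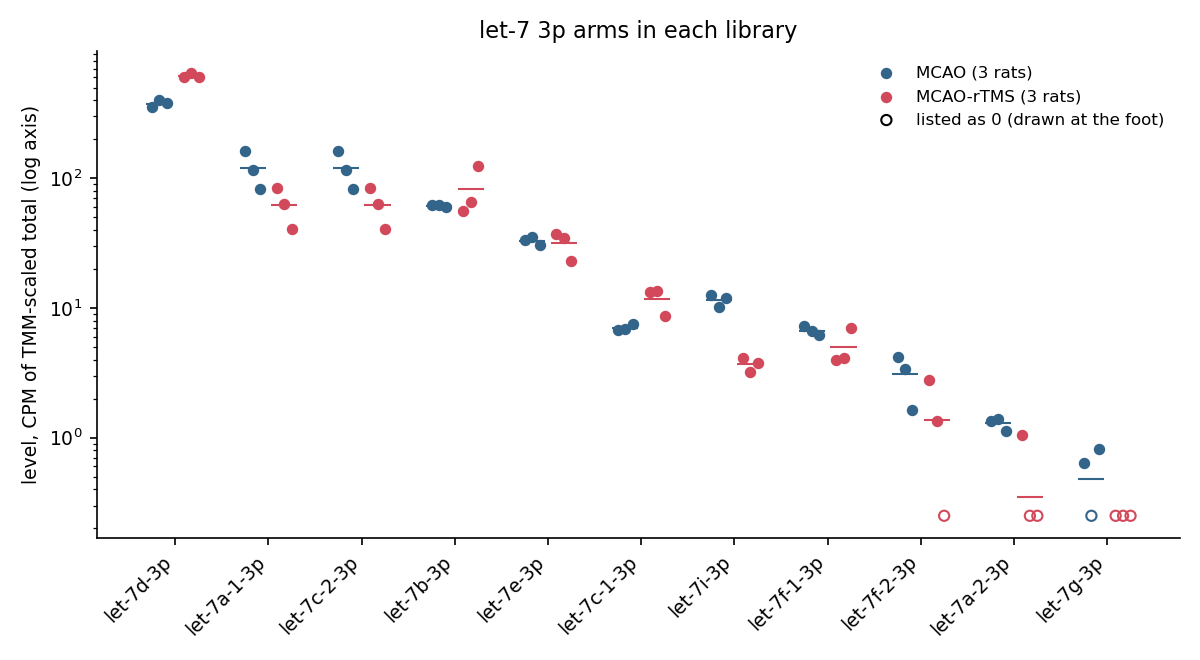
Level of the 11 let-7 3p arms in CPM of the TMM-scaled total (log axis) in each of 3 MCAO and 3 MCAO-rTMS libraries, points being libraries, short lines group means and open circles values listed as 0. let-7d-3p lies between 351 and 648 CPM in all 6 libraries, and let-7a-2-3p and let-7g-3p lie below 1.5 CPM in all 6.

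rno-let-7d-3p was the most abundant member, at 351, 398 and 377 CPM in the MCAO libraries and 605, 648 and 602 CPM in the MCAO-rTMS libraries. The next row, shared by rno-let-7c-2-3p and rno-let-7a-1-3p, was at 161, 117 and 82.9 CPM in the MCAO group and 84.7, 62.7 and 40.6 CPM in the MCAO-rTMS group. These groups touch, since the lowest MCAO library lies just under the highest MCAO-rTMS library.
rno-let-7b-3p was at 61.9, 61.6 and 59.9 CPM in the MCAO group and 56.1, 65.6 and 125 CPM in the MCAO-rTMS group, where replicate 3 stood apart. rno-let-7e-3p, the 3p arm from the hairpin next to miR-99b and miR-125a, ranged from 30.8 to 35.1 CPM in the MCAO group and from 23.1 to 37.5 CPM in the MCAO-rTMS group. For both miRNAs the groups overlapped.
Among the rarer members, rno-let-7i-3p was at 12.5, 10.2 and 12.0 CPM in the MCAO group and 4.14, 3.20 and 3.79 CPM in the MCAO-rTMS group. rno-let-7c-1-3p went the other way, from 6.75, 6.93 and 7.52 CPM to 13.3, 13.5 and 8.65 CPM. In both of them the groups were apart.
rno-let-7f-1-3p ranged from 6.14 to 7.26 CPM in the MCAO group and from 3.99 to 7.00 CPM in the MCAO-rTMS group, so that they overlapped. The counts of rno-let-7f-2-3p were 66, 41 and 26 in the MCAO libraries and 37, 16 and 0 in the MCAO-rTMS libraries. Those of rno-let-7a-2-3p were 21, 17 and 18, against 14, 0 and 0.
rno-let-7g-3p was listed at 10, 0 and 13 reads in the MCAO libraries and at 0 in all 3 MCAO-rTMS libraries, too few for a fold or a test. A 0 may stand for up to 9 reads, which limits these last 3 members. Of them, let-7a-2-3p and let-7g-3p were near the smallest count the table can show, and let-7a-2-3p passed the filter through its MCAO libraries.

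Some neighbours in this order did not differ beyond their spread. In the MCAO group the shared row, let-7b-3p and let-7e-3p did not overlap with each other. There let-7c-1-3p, from 6.75 to 7.52 CPM, overlapped with let-7f-1-3p, whereas let-7i-3p lay above both and let-7f-2-3p below. In the MCAO-rTMS group, where the spread was wider, the shared row overlapped with let-7b-3p, and let-7i-3p with let-7f-1-3p. All members with a sequence are 21 or 22 bases long, so these CPM levels compare molecules of nearly equal length.

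The question put to the strand balance was whether the 3p arms followed their 5p arms after rTMS. Among the 8 ratios with reads in every library, 7 were lower in the MCAO-rTMS group and none was higher (limma on log2 ratios over all 167 pairs of arms, Benjamini-Hochberg adjustment), and that of let-7d did not pass. The sparsely counted let-7f-2 did not pass either. let-7a-2-3p, which entered through its MCAO libraries, is given by its values only and is left out of these counts, although the fit over all 10 pairs called it lower as well, 8 in all. Over all 167 pairs, 50.3% passed in either direction, 26.9% lower and 23.4% higher, and among the 84 pairs whose 3p arm is the rarer arm 34.5% were lower. Turned so that the rarer arm is divided by the commoner arm, 30.5% of all pairs were lower. The 10 let-7 ratios are not independent of each other, because let-7a-1-3p and let-7a-2-3p share a 5p arm, as do both let-7c and both let-7f rows. A pair of rows also holds the same 3p counts. A 5p arm made by several hairpins is counted in a single row, so these ratios set 1 hairpin's 3p reads against the 5p reads of all hairpins of that letter.

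**Figure D2:**
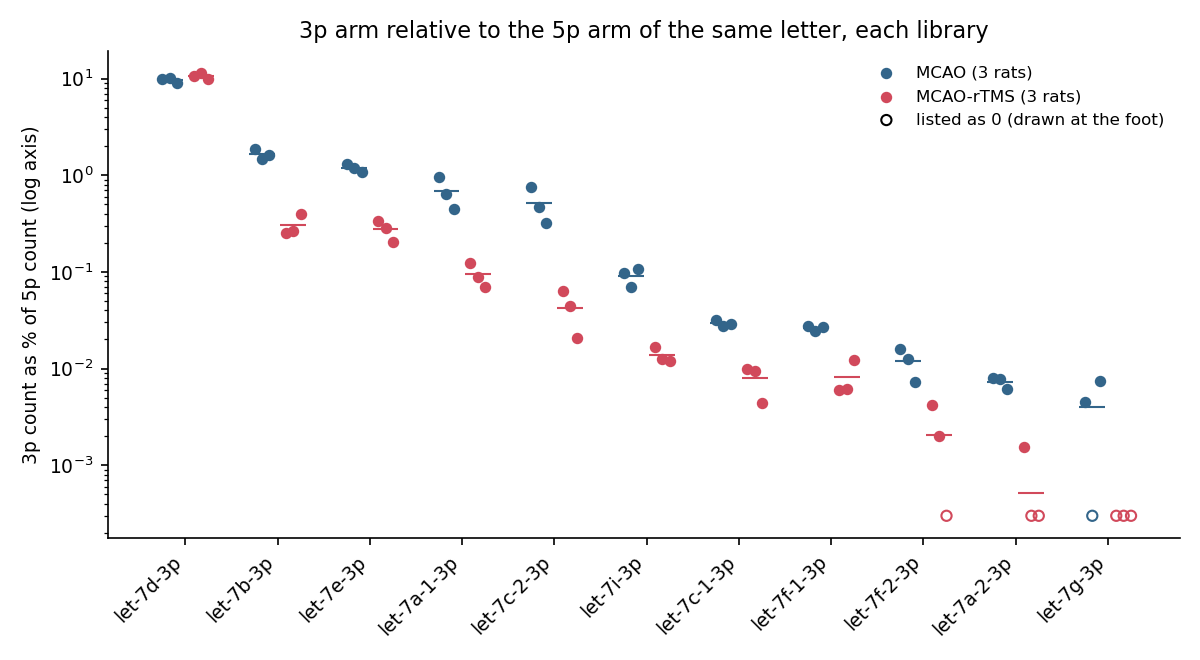
Count of each let-7 3p arm as a percent of the count of the 5p arm of the same letter (log axis), in 3 MCAO and 3 MCAO-rTMS libraries, points being libraries, short lines group means and open circles a 3p count listed as 0. The groups are apart in each pair except let-7d, between 8.89% and 11.4% in all 6 libraries, and let-7g.

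let-7d stood out by a large and stable ratio. Its 3p arm came to 9.81%, 10.0% and 8.89% of its 5p arm in the MCAO libraries and to 10.7%, 11.4% and 9.81% in the MCAO-rTMS libraries, so the groups overlapped. The log2 ratio changed by 0.15 (standard error 0.17, adjusted p = 0.48 in the limma fit), with a 95% confidence interval from -0.24 to 0.55. A small change in either direction lies within that interval. The intervals of the 7 lower ratios all lay below it, the nearest being that of let-7f-1, from -2.58 to -0.96.

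let-7b, the hairpin of the guide strand that the study followed up, had 3p counts of 1.87%, 1.48% and 1.64% of the 5p count in the MCAO group. In the MCAO-rTMS group they were 0.253%, 0.267% and 0.401%. The log2 ratio fell by 2.46 (standard error 0.25, adjusted p = 0.0006 in the limma fit), or 5.51-fold, and the groups were far apart.
let-7e had ratios of 1.30%, 1.18% and 1.08% in the MCAO group and 0.338%, 0.286% and 0.204% in the MCAO-rTMS group. Its log2 ratio fell by 2.13 (standard error 0.25, adjusted p = 0.0011 in the limma fit). In both hairpins the level of the 3p arm overlapped between the groups, and the 5p arm differed.

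let-7i, which lies alone in the genome with no other miRNA gene within 50 kb, had 3p counts of 0.0970%, 0.0704% and 0.107% of the 5p count in the MCAO group. They came to 0.0166%, 0.0127% and 0.0120% in the MCAO-rTMS group. The log2 ratio fell by 2.72 (standard error 0.27, adjusted p = 0.0006 in the limma fit), or 6.57-fold. Here the arms moved in opposite directions, with log2 fold changes in level of -1.64 for let-7i-3p and 1.08 for let-7i-5p, and the same signs and calls under all 5 library scalings.

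For the reads shared by let-7c-2-3p and let-7a-1-3p, the ratio depends on the hairpin to which they are given. Divided by let-7a-5p, they came to 0.963%, 0.644% and 0.449% in the MCAO group and 0.125%, 0.0896% and 0.0697% after rTMS. The log2 ratio fell by 2.83 (standard error 0.36, adjusted p = 0.0013 in the limma fit). Divided by let-7c-5p, they came to 0.762%, 0.467% and 0.320% and to 0.0629%, 0.0439% and 0.0209%, and the log2 ratio fell by 3.65 (standard error 0.49, adjusted p = 0.0014 in the limma fit). Divided by the sum of both 5p arms, a value that needs no choice between them, the shared reads went from 0.425%, 0.271% and 0.187% to 0.0418%, 0.0294% and 0.0161%. The ratio was lower after rTMS whichever 5p arm was used.

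The 3p arms of the remaining hairpins with reads in every library were rarer still. let-7c-1-3p came to 0.0319%, 0.0277% and 0.0290% of let-7c-5p in the MCAO group and 0.00988%, 0.00943% and 0.00445% in the MCAO-rTMS group, and its log2 ratio fell by 1.98 (standard error 0.35, adjusted p = 0.004 in the limma fit). let-7f-1-3p came to 0.0275%, 0.0243% and 0.0271% of let-7f-5p and then to 0.00604%, 0.00607% and 0.0123%, and its log2 ratio fell by 1.77 (standard error 0.34, adjusted p = 0.0053 in the limma fit). It was the smallest fall of those that passed, and replicate 3 of the MCAO-rTMS group lay nearest to the MCAO group.

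let-7a-2-3p and let-7f-2-3p contain values listed as 0, so the size of their change rests on the number added before the ratio. let-7a-2-3p came to 0.00798%, 0.00775% and 0.00610% of let-7a-5p in MCAO rats and to 0.00155%, 0 and 0 after rTMS. Its log2 ratio change was -5.21 with 0.5 added and -2.38 with each 0 set to 9, given without a test because the filter kept it through the group in which it is high. For let-7f-2-3p these values were -3.65 (standard error 1.41, adjusted p = 0.072) and -2.24 (adjusted p = 0.0021 in the limma fit). Without MCAO-rTMS replicate 1 the change of let-7f-2-3p was -4.77 (adjusted p = 0.022 in the limma fit), and without replicate 3, the library with the 0, it was -1.95 (adjusted p = 0.02 in the limma fit). For let-7a-2-3p the log2 ratio change without MCAO-rTMS replicate 1, the library with 14 reads, was -6.71, without replicate 2 -4.34 and without replicate 3 -4.58.

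These 7 ratios with reads in every library, those of let-7a-1, let-7b, both let-7c, let-7e, let-7f-1 and let-7i, stayed lower at an adjusted p under 0.05 under each of the 14 or 15 alternative settings in which they could be fitted. The groups did not overlap in 7 of the 8 let-7 ratios with reads in every library, beside 58.1% of all 167 pairs. Neither these 167 pairs nor the 157 below were limited to reads in every library, and the 8 hold the shared reads in both rows. Over these 8 the median log2 change was -2.30, and over the 157 pairs outside let-7, with the rarer arm over the commoner, it was -0.36. The log2 ratio change was below -2 in 5 of the 8 and in 27 of the 157 others, so values of this size were not limited to let-7. By size of the fall of the rarer over the commoner arm, let-7c-2-3p ranked 10, let-7a-1-3p 16, let-7i-3p 17 and let-7b-3p 25 of 167. let-7e-3p ranked 31, let-7c-1-3p 35 and let-7f-1-3p 39, while let-7d-3p ranked 109. The ranks of let-7c-2-3p and let-7a-1-3p rest on the same 3p counts.

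The distance between let-7d and the other hairpins within libraries is given as a description, since let-7d was singled out by its ratio. The log2 ratio of let-7d exceeded that of let-7i by 6.72 ± 0.397 in the MCAO group and by 9.59 ± 0.248 in MCAO-rTMS rats (SD, n = 3 each). Against let-7a-1 the excess was 3.87 ± 0.486 and 6.85 ± 0.378, and against let-7f-1 it was 8.50 ± 0.169 and 10.4 ± 0.688. let-7a-1, let-7f-1 and let-7d lie within 50 kb of each other in the genome, and clusters of this kind are usually cut from a single transcript. Of the 10 hairpins compared with let-7d, 9 had an excess that did not overlap between the groups, and for let-7g the groups overlapped. This count restates the ratios above and is no further result. The 9 include let-7a-2 and let-7f-2, which have values listed as 0, and both rows of the shared reads.

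The log2 fold changes of both arms, side by side, show what lay behind each ratio.

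**Figure D3:**
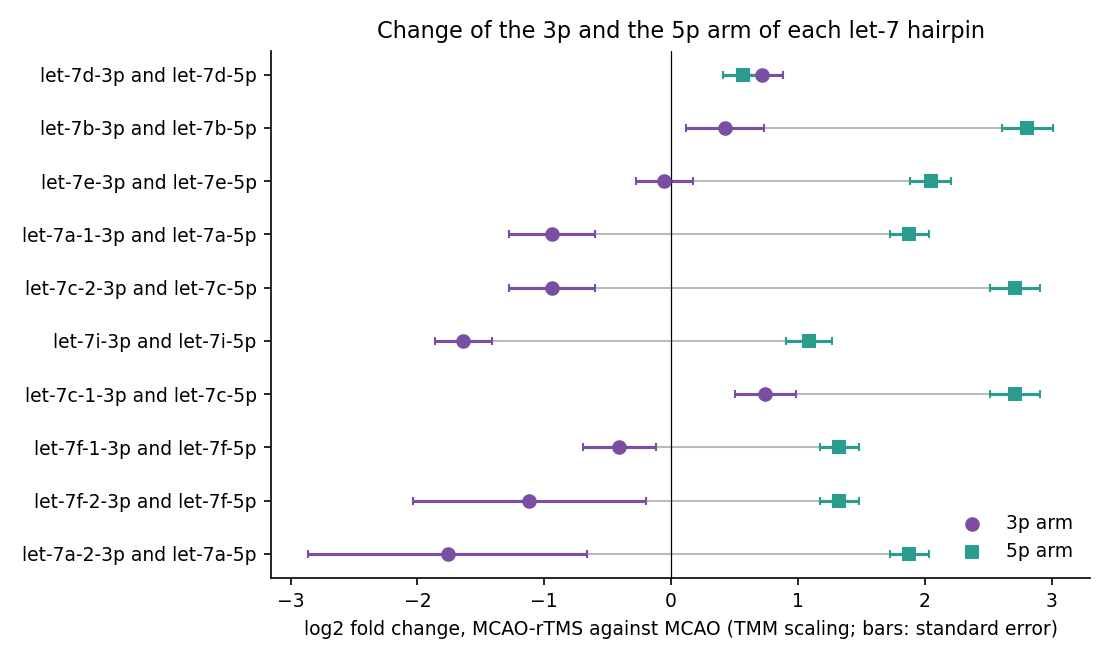
Log2 fold change in level (MCAO-rTMS against MCAO, TMM scaling) of the 3p arm (circles) and the 5p arm (squares) of the 10 let-7 hairpins tested, ordered by the ratio in the MCAO group. Bars are standard errors derived from the fold change and F statistic of edgeR's quasi-likelihood test. The arms of let-7d lie together at 0.72 and 0.57, and in the other 9 hairpins the 5p arm lies to the right of the 3p arm.

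Of the 8 5p arms, 7 rose in the edgeR quasi-likelihood test and none fell. In 6 of them the log2 fold change lay between 1.08 (let-7i-5p) and 2.81 (let-7b-5p), and these 6 passed under all 5 library scalings. It was smaller for let-7d-5p (0.57, adjusted p = 0.02 in edgeR) and let-7g-5p (0.62, adjusted p = 0.06), and with library totals only that of let-7d-5p was -0.074 (adjusted p = 0.74). Of the 10 3p arms tested, 5 passed an adjusted p of 0.05 in that test, 2 higher and 3 lower, with the shared reads counted in both rows. Over all 452 miRNAs 55.3% passed, 27.2% higher and 28.1% lower, so the share of let-7 3p arms that differed was close to that of all miRNAs. The groups did not overlap in 4 of the 10 (let-7c-1-3p, let-7d-3p, let-7i-3p and let-7a-2-3p), beside 66.8% of all miRNAs. For let-7a-2-3p, kept by the filter through its MCAO libraries, the gap was narrow and near the smallest count the table can show. Its lowest MCAO library was at 1.13 CPM and its highest MCAO-rTMS library at 1.05 CPM. The median over the 10 3p arms also includes let-7a-2-3p. The median log2 fold change was -0.67 over the 10 3p arms and -0.21 over all miRNAs. None of the 3p arms and 6 of the 8 5p arms are among the 73 miRNAs that the authors deposited as a separate selection. The paper chose 73 miRNAs by thresholds on CT value, fold change and P, which differ from the threshold used here. Absence from that selection therefore does not mean that a level was unchanged.

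let-7i-3p had the firmest change in level, a fall by 1.64 on the log2 scale (standard error 0.22, adjusted p = 0.0012 in the edgeR test), or 3.12-fold. All 17 alternative settings kept it lower and past the threshold, with a log2 fold change between -2.27 and -1.42.
let-7d-3p rose by 0.72 (standard error 0.16, adjusted p = 0.0088 in the edgeR test), next to let-7d-5p in size. With upper-quartile factors the rise of let-7d-3p was 0.43 (adjusted p = 0.059 in edgeR) and with library totals only 0.094 (adjusted p = 0.7).
let-7c-1-3p rose by 0.74 (standard error 0.24, adjusted p = 0.033 in the edgeR test). It no longer passed in 9 of 17 alternatives, among them edgeR with library totals only (0.13, adjusted p = 0.73) and the edgeR fits without MCAO replicate 1 (adjusted p = 0.091), 2 (0.097) or 3 (0.056) or without MCAO-rTMS replicate 1 (0.089) or 2 (0.11).
let-7c-2-3p and let-7a-1-3p fell by 0.94 (standard error 0.34, adjusted p = 0.047 in the edgeR test), just inside the threshold. The edgeR call was lost in 9 of 16 alternatives for let-7a-1-3p, among them RLE factors (adjusted p = 0.051) and the fits without MCAO replicate 1 (0.16) or 2 (0.11) or MCAO-rTMS replicate 2 (0.14) or 3 (0.1), and the direction was kept in all 16.

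The other 3p arms did not pass in level. The log2 fold change was 0.43 for let-7b-3p (adjusted p = 0.26 in the edgeR test) and 0.01 without MCAO-rTMS replicate 3, the library that stood apart. It was -0.054 for let-7e-3p (adjusted p = 0.86) and -0.41 for let-7f-1-3p (adjusted p = 0.26), and without MCAO-rTMS replicate 3 let-7f-1-3p was at -0.69 (adjusted p = 0.04 in edgeR). For the low counts of let-7f-2-3p and let-7a-2-3p the values were -1.12 and -1.76 (adjusted p = 0.33 and 0.21 in the edgeR test). Without MCAO-rTMS replicate 1, let-7a-2-3p is listed at 0 in both remaining libraries of that group, and its fitted value of -7.10 depends on the prior count and is no measure of size.

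**Figure D4:**
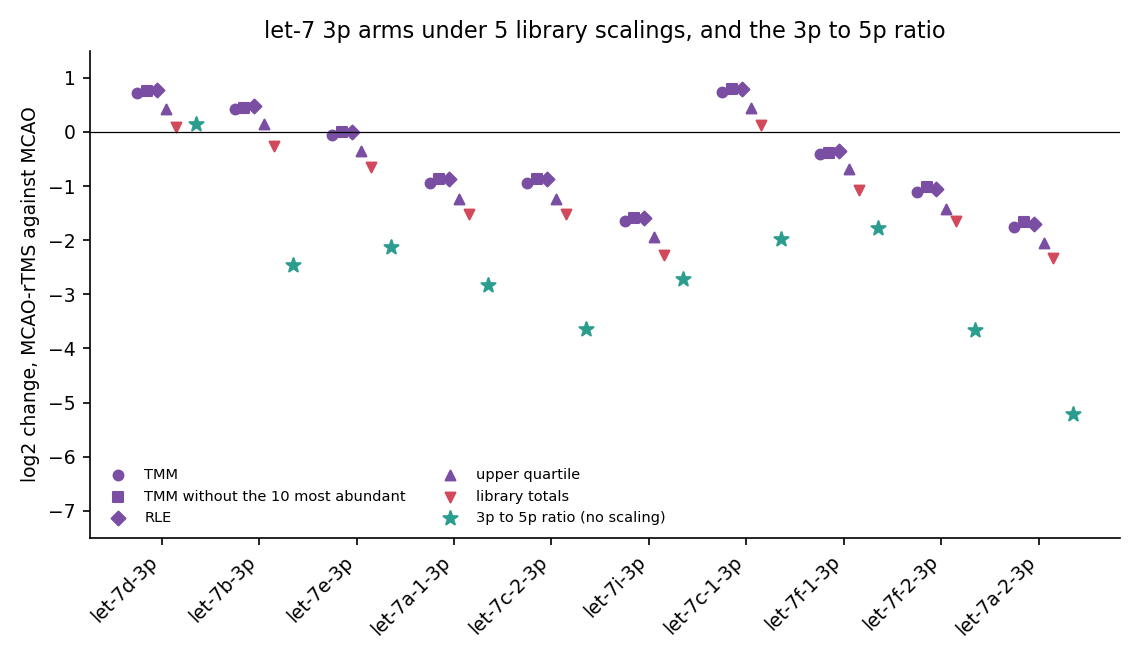
Log2 change (MCAO-rTMS against MCAO) of the level of each let-7 3p arm under 5 library scalings (circles, squares, diamonds and triangles) and of its ratio to the 5p arm (stars), which uses no scaling. Library totals (downward triangles) place every 3p arm lower than TMM does and let-7b-3p below 0, and the ratio lies below every level change except in let-7d.

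The size of these changes in level moved with the scaling, and the sign changed for let-7b-3p (-0.25 with library totals only) and let-7e-3p (0.0011 with RLE factors), while the other 8 arms kept theirs under all 5 scalings. The median log2 fold change of all 452 miRNAs was -0.21 under TMM, -0.50 under upper-quartile factors and -0.80 under library totals alone. Relative to that median, let-7d-3p was at 0.93 under TMM and 0.90 under library totals, let-7c-1-3p at 0.95 and 0.94, and let-7i-3p at -1.43 and -1.47. With library totals only, 4 of the 10 3p arms passed, all lower, with let-7f-1-3p among them (log2 fold change -1.07, adjusted p = 0.011 in edgeR).

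Some let-7 hairpins sit beside miR-99, miR-100 and miR-125, so the arms of these neighbours were counted as well. RefSeq places let-7e within 50 kb of miR-99b and miR-125a, let-7a-2 near miR-100 and miR-125b-1, let-7c-1 near miR-99a and miR-125b-2, and let-7f-2 near miR-98. Of 13 listed arms 12 were tested, and after rTMS 6 rose and 2 fell in the edgeR test, beside 27.2% higher and 28.1% lower over all 452 miRNAs. In strand balance the miR-125 hairpins went the opposite way to let-7. miR-125a-3p, from the cluster of let-7e, came to 0.184%, 0.159% and 0.145% of miR-125a-5p in the MCAO group and 0.614%, 0.618% and 0.894% in the MCAO-rTMS group, so the ratio was higher in every MCAO-rTMS library. Its log2 ratio rose by 2.10 (standard error 0.24, adjusted p = 0.001 in the limma fit), whereas that of let-7e fell by 2.13. For miR-125b-1-3p and miR-125b-2-3p the log2 ratio to miR-125b-5p rose by 2.56 and 1.53 (adjusted p = 0.001 and 0.002 in the limma fit). The log2 ratio changes of miR-99b, miR-99a and miR-100 were -0.42, -1.28 and -2.55 and did not pass (adjusted p = 0.088, 0.13 and 0.11 in the limma fit), and miR-98-3p was listed at 17, 0 and 14 reads in MCAO rats and at 0 in MCAO-rTMS rats.

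**Figure D5:**
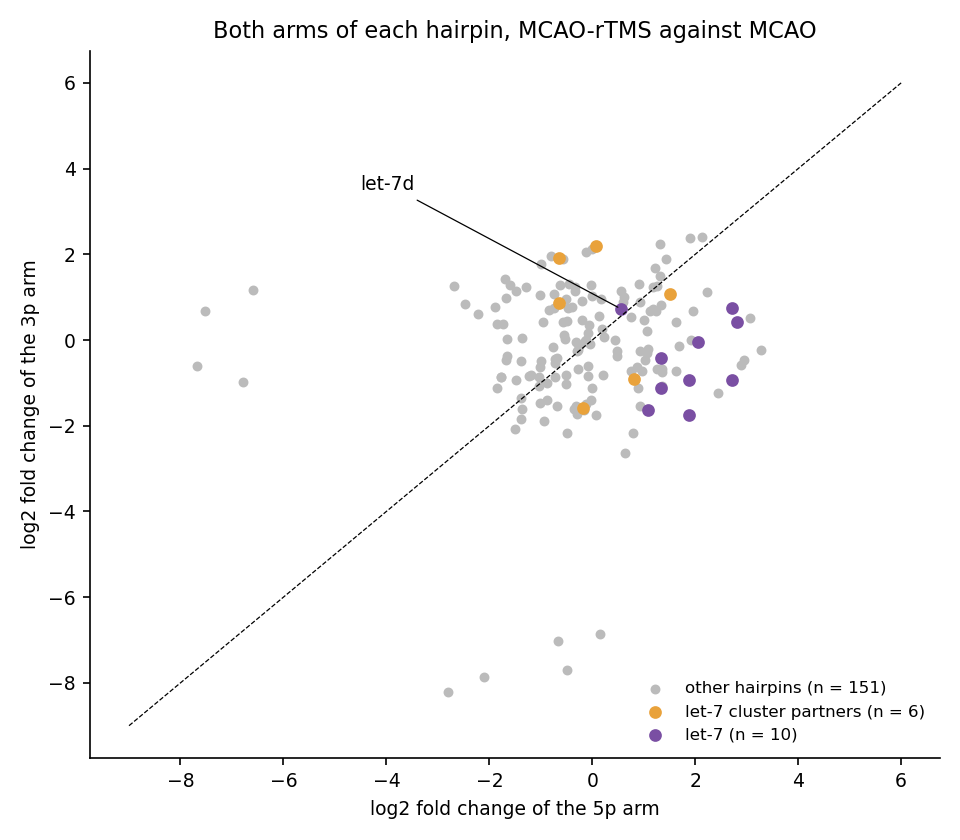
Log2 fold change in level (MCAO-rTMS against MCAO, TMM scaling) of the 5p arm (x axis) and the 3p arm (y axis) for all 167 pairs of arms tested, with 10 let-7 pairs, 6 pairs of let-7 cluster partners and 151 others, and a dashed line where both arms change equally. Of the let-7 pairs 9 lie below the line and let-7d lies on it within its error, while the 3 miR-125 pairs lie above it.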

How the data were processed

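Small RNA was sequenced from the peri-infarct cortex of 6 rats, 3 MCAO and 3 MCAO-rTMS, with 1 library each. The authors deposited a table of raw read counts per mature miRNA, used here as deposited, in which no value from 1 to 9 occurs. The submitters' processing notes name bcl2fastq, BWA, DESeq2 and the build rn6 without roles. How a read matching more than a single miRNA was counted is not given in the sources used here. A second deposited table, the authors' selection of 73 miRNAs with per-library values, was used only to look up which names it holds.

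Levels were tested with edgeR 4.0.16 (TMM factors, filterByExpr, quasi-likelihood test) over 452 miRNAs, and log2 ratios of 3p to 5p counts, with 0.5 added to each, with limma 3.58.1 over 167 pairs, in R 4.3.3, both with Benjamini-Hochberg adjustment and a threshold of 0.05. A 3p arm was paired with the 5p arm of its own name or, where a single arm carries a copy number, of its letter. The code was tested on simulated counts. Alternatives were other scalings, DESeq2 1.42.0, limma-voom, an unmoderated equal-variance test, no filter, zeros set to 9, other added counts, a replicate block and leaving out each library. Total counts of 10492610 to 15411620 set the depth, and values after ± are SDs between rats. Standard errors of levels were derived from edgeR's fold change and F statistic, and those of ratios come from the moderated limma fit.

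The members and gene lists were chosen with earlier results of these data known. Named were the let-7 3p arms (11 rows meet the rule, 10 of them listed beforehand), the 5p arms as reference, members of the lists, and the 3 miRNAs most alike in profile to the most abundant member and to that with the largest fold change.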

Additional observations from a re-analysis of the deposited data

How the results depend on the processing

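The count of let-7 3p arms past the threshold, 5 of 10, was sensitive to the settings. It was 3 with RLE factors, 3 with upper-quartile factors, 3 when scaling ignored the 10 commonest miRNAs, 3 without the filter, 3 with zeros set to 9 and 2 with the unmoderated test, and ranged from 2 to 5 when a library was left out. Counting the shared reads in both rows, as would apply after an even split, gave a 3p share of 0.707% in MCAO and 0.233% in MCAO-rTMS rats. The log2 fold change of let-7b-3p turned to -0.25 with library totals only. That of let-7e-3p, -0.054 with TMM factors, was -0.35 under upper-quartile factors and -0.65 under library totals, turned to 0.0011 with RLE factors, 0.0018 with DESeq2 and 0.041 with zeros set to 9, and ranged from -0.19 to 0.16 when a library was left out. Except where the alternative itself uses fewer samples, the cause was not tested. The count of ratios past the threshold, 8 of 10 with let-7a-2-3p included, stayed between 7 and 9, and was 7 of 8 in the fit of pairs with reads in every library, where 76 of all 138 pairs passed.

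No pairing of the rats by replicate number was seen, as the deviations of same-numbered libraries correlated at 0.20, -0.12 and -0.11. Not every library correlated best with its own number, and with 3 rats a group this check cannot exclude a pairing. With a replicate block, 4 arms and 9 ratios passed. Counts listed as 0 limit let-7a-2-3p, let-7f-2-3p and let-7g-3p.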

Other observations

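The profiles most like that of let-7d-3p over the 6 libraries, by the root mean square difference of centred log2(CPM + 1) values, were those of miR-27b-5p and let-7d-5p (0.112 each) and miR-409a-3p (0.132). For let-7a-2-3p, the member with the largest fold change and mostly near 0, they were miR-15b-3p (0.153), miR-26a-3p (0.154) and miR-652-3p (0.188). For let-7i-3p, added after its values were seen, they were miR-153-5p (0.107), miR-181c-5p (0.112) and miR-3065-5p (0.129). Their log2 fold changes were -7.68, -1.38 and -7.39, against -1.64 for let-7i-3p. The 1 added to CPM compresses differences at low levels, so a like profile here does not mean a like fold change.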
